A study of Mus musculus with 27 samples.

Results

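The transforming growth factor beta (TGF-beta) superfamily genes described here were 9 of the 19392 genes in the deposited expression table, chosen by their symbols as ligands, receptors and the inhibitor of the pathway. They were Tgfb1, Tgfb2 and Tgfb3, which encode the TGF-beta ligands, Inhba and Inhbb, which encode the activin subunits, Bmp7, which encodes a bone morphogenetic protein (BMP), Tgfbr1 and Tgfbr2, which encode the receptor chains for TGF-beta, and Smad7, which encodes an inhibitor of the signal. RNA-Seq had been done on the left kidneys of C57BL/6 mice, 3 mice at each of 9 ischemia times. The left renal pedicle was clamped for 0 min (the control group, labelled Sham), 16, 18, 20, 22, 24, 26, 28 or 30 min on a heated platform, and kidneys were taken after 24 h. In all 9 groups, the 0 min group included, the right kidney had been removed, so the clamp time was the only labelled difference between groups. Age and sex of the mice are not given in the sources used here, and the replicates were different mice. Levels are in FPKM, counts of sequenced fragments divided by transcript length and library size, so that genes can be compared per length. Changes are log2 fold changes of FPKM plus 1 from limma, which understates the change of genes below 1 FPKM. A gene was called when its p-value, adjusted over the 18188 genes tested, was under 0.05, and it was a differentially expressed gene (DEG) when its log2 fold change was also beyond 1 in either direction. All 9 genes were above 0 FPKM in all 27 kidneys and passed the filter on low values.

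As background, TGF-beta is secreted in a latent form, is released from it by integrins and thrombospondin, and brings together the type II receptor Tgfbr2 and the type I receptor Tgfbr1, which phosphorylates Smad2 and Smad3. Activins, dimers of the products of Inhba and Inhbb, use other receptors and the same Smads, whereas BMPs signal through Smad1 and Smad5. In the kidney, TGF-beta is best known as a driver of fibrosis after injury, and Bmp7 as an opposing factor made by tubule cells and podocytes and needed for nephron formation. Smad7 is switched on by the pathway and shuts down its receptors.

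Tgfb1, Tgfbr1 and Tgfbr2 were the members above 5 FPKM in every kidney that rose, so the 250 bases before their start sites are shown. The sequences come from RefSeq with build GRCm38.p6 and run 5′ to 3′ on the strand of the gene. Windows of 6 of the 9 genes were used here. Tgfb1 lies at chr7:25687002-25705077, Tgfbr1 at chr4:47353222-47414926 and Tgfbr2 at chr9:116087695-116175363. Capitals mark CAGAC, the core of a Smad site, and GGCGCC, a motif bound by BMP-activated Smads, each searched on both strands.
Tgfb1, chr7:25686752-25687001, plus strand: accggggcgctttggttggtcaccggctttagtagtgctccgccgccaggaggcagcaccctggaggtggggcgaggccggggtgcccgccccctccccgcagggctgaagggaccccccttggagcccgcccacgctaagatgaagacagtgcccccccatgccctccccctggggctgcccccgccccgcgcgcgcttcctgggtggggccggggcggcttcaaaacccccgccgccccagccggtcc
Tgfbr1, chr4:47352972-47353221, plus strand: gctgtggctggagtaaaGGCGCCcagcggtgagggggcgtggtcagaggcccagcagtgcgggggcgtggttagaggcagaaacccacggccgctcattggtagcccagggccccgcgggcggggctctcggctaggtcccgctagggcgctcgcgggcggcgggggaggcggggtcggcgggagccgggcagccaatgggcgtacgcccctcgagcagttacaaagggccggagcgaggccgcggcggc
Tgfbr2, chr9:116175364-116175613, minus strand: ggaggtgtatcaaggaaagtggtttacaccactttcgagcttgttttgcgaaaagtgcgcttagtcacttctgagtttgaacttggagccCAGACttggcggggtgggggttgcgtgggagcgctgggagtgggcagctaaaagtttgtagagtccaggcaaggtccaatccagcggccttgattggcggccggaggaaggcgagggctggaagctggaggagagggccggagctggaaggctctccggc
The Tgfbr2 window held 1 CAGAC, with its first base at position -160 from the start site, and the Tgfbr1 window held 1 GGCGCC, with its first base at position -233. A second Tgfbr1 window in RefSeq, chr4:47385966-47386215, is not shown and held 1 CAGAC at position -203 and no GGCGCC. The Tgfb1 window held neither. TGANTCA, the AP-1 motif, and TATAAA were not found in the windows shown or in the second one of Tgfbr1. Of all 32851 promoter windows of 250 bases, 42.2% held CAGAC, 9.59% held GGCGCC, 6.75% held TGANTCA and 12.4% held TATAAA on either strand. The GC share was 75.2% for Tgfb1 and 74.8% for Tgfbr1, at the 96.4 and 96.1 percentiles of all windows, and 58.4% for Tgfbr2, at percentile 68.9.

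The tissue held kidney RNA at each ischemia time: the 6 markers of proximal tubule summed to 4171 to 4678 FPKM in the 0 min kidneys and still to 1021 to 1216 FPKM at 30 min. The summed FPKM per kidney ranged from 512453 to 554036, and the number of reads is unknown, since the values are FPKM. A pair of kidneys stood apart from the other replicates of their groups in the markers given next. In mean Pearson correlation with its own replicates, replicate 2 at 16 min (0.988) lay between replicate 3 at 16 min (0.987) and at 30 min (0.989). Replicate 3 at 16 min had a sum of 70.2 FPKM over the 4 markers of injured tubule (Havcr1, Lcn2, Krt20 and Vcam1), against 728 and 1019 FPKM in the other 16 min kidneys. The 0 min kidneys were at 16.3, 15.6 and 89.9 FPKM, so replicate 3 at 0 min also stood above its partners. Replicate 3 at 16 min was therefore low for its label in injury markers, but within the 0 min range only through that 0 min kidney. In replicate 3 at 16 min the levels of 4 of the 9 genes lay within the range of the 0 min kidneys. Replicate 3 at 30 min had 2189.6 FPKM over the 3 markers of the loop of Henle, against 509 and 504 FPKM in the other 30 min kidneys. Calls of the 9 genes that rest on replicate 3 at 16 or 30 min are given with and without it. Ratios, correlations and the single genes of the lists are given only with both kidneys. Without quantile normalization, 61.4% of all calls at 30 min were higher and 68.4% to 74.1% at 16 to 26 min, against 51.5% and 45.3% to 49.5% with it. None of the 9 genes changed direction with that setting where it was called.

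At 30 min all 9 genes had changed against 0 min, beside 52.3% of all genes tested called in either direction. The 9 split into 8 higher, beside 26.9% of all genes, and 1 lower, beside 25.4%. At 28 min 7 were called, beside 48.2% of all genes, with 6 higher, beside 24.5%, and 1 lower, beside 23.6%. Fewer were called after shorter clamping. At 16 min it was 1 gene, beside 19% of all genes tested. After 18, 20 and 22 min 3, 2 and 2 were called, beside 27.8%, 22.8% and 28.8% of all genes. The 24 and 26 min kidneys gave 3 and 2, beside 28.3% and 30.1%. These 8 comparisons share the same 0 min kidneys. The DEGs among the 9 were Tgfb1, Tgfb3, Inhbb and Tgfbr1 at 30 min, beside 10.7% of all genes, and Tgfb1 and Tgfbr2 at 28 min, beside 8.48%. Tgfb1 was also the 1 DEG of the 9 at 18, 24 and 26 min, beside 3.06%, 3.12% and 3.77% of all genes, and 0 of the 9 were DEGs at 16, 20 and 22 min, beside 2.25%, 2.51% and 3.29%. At 30 min the ranges of the 30 min and 0 min kidneys did not overlap for any of the 9, as for 54.5% of all genes. Without replicate 3 at 16 min, 5 genes were called at 16 min in place of 1, with Bmp7, Inhba, Inhbb and Tgfbr2 added. Without any other 0 or 16 min kidney, the count at 16 min stayed at 1. At 30 min 9 were still called without replicate 3.

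**Figure D1:**
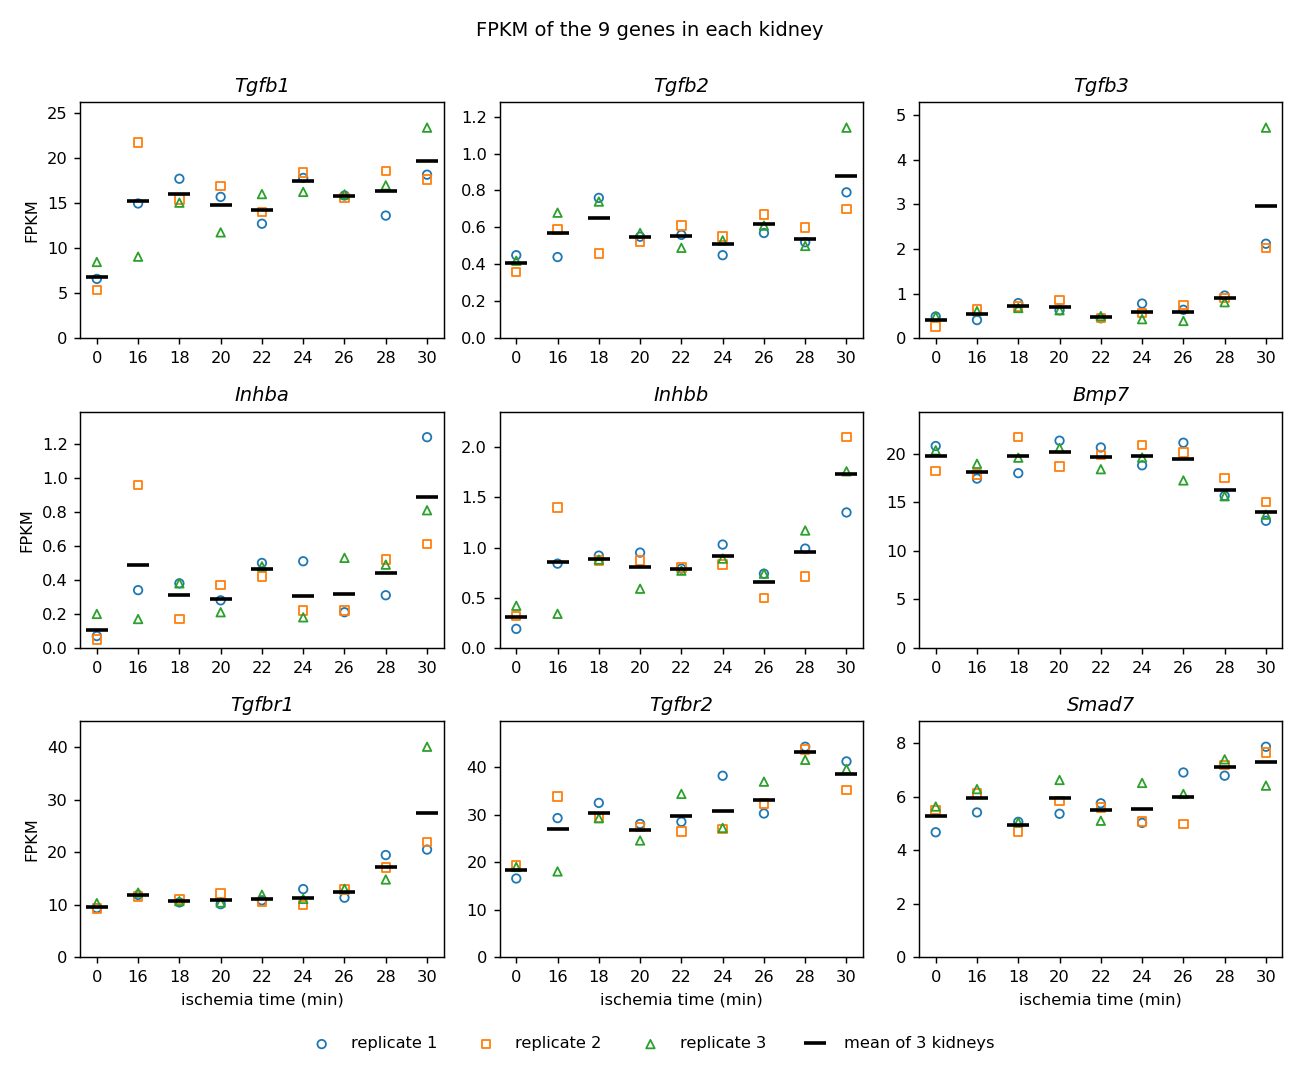
FPKM of the 9 genes in each of the 27 kidneys (y axis) at each ischemia time in min (x axis, evenly spaced), with 1 symbol per replicate and a bar for the mean of 3 kidneys. Tgfb1 stood above its 0 min kidneys in all 24 clamped kidneys, Tgfb3 and Tgfbr1 reached 4.72 and 40.06 FPKM in replicate 3 at 30 min, and Bmp7 was lowest at 30 min.

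The most abundant TGF-beta ligand gene, Tgfb1, rose after every clamp time. It was at 6.59, 5.33 and 8.46 FPKM in the 0 min kidneys, at 14.94, 21.67 and 9.05 FPKM after 16 min and at 18.13, 17.59 and 23.34 FPKM after 30 min. The 18 kidneys clamped for 16 to 26 min ranged from 9.05 to 21.67 FPKM, with a median of 15.7 FPKM. No clamped kidney overlapped the 0 min kidneys, and the lowest one was replicate 3 at 16 min. The mean rose 2.24-fold from 6.79 ± 1.57 FPKM (SD, n = 3) at 0 min to 15.2 ± 6.31 FPKM (SD, n = 3) at 16 min, and the log2 fold change was 0.89 (standard error 0.20, limma adjusted p = 0.00395). Without replicate 3 this was 1.19 (limma adjusted p = 5.49e-05), while a fit of the 0 and 16 min kidneys alone did not call it (limma adjusted p = 0.16). Leaving out each of the 6 kidneys in turn gave 0.62 to 1.19, called each time, with limma adjusted p up to 0.0349. The change was 1.02 (limma adjusted p = 0.000265) at 28 min and 1.30 (limma adjusted p = 1.37e-05) at 30 min, and 0.88 to 1.14 from 18 to 26 min. In order of their means the clamp times ran 22, 20, 16, 26, 18, 28, 24 and 30 min, no neighbouring pair in that order differed, and 30 min against 28 min and against 16 min were not called for Tgfb1.

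Tgfb3 had its change at the end of the series. Its level was 0.49, 0.27 and 0.49 FPKM at 0 min, 0.96, 0.91 and 0.81 FPKM at 28 min and 2.12, 2.03 and 4.72 FPKM at 30 min. From 16 to 26 min it lay between 0.39 and 0.86 FPKM, overlapping the 0 min kidneys. Every 30 min kidney was above every other kidney of the series, with replicate 3 above the other two. Against 0 min the log2 fold change was 0.38 at 28 min (limma adjusted p = 0.0403) and 1.36 at 30 min (standard error 0.15, limma adjusted p = 2.17e-07), a 7.10-fold rise of mean FPKM. Between 28 and 30 min it was 0.98 (limma adjusted p = 0.000528). Without replicate 3 at 30 min, these were 1.09 against 0 min (limma adjusted p = 5.24e-08) and 0.71 against 28 min (limma adjusted p = 0.00051). The call at 28 min was lost on leaving out any one of 5 of the 6 kidneys compared, with adjusted p from 0.0491 to 0.153 over the 6, and held only without replicate 3 at 0 min.

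Tgfb2 was the scarcest TGF-beta ligand gene over the series and had the smallest rise. It was at 0.45, 0.36 and 0.42 FPKM at 0 min, 0.52, 0.60 and 0.50 FPKM at 28 min and 0.79, 0.70 and 1.14 FPKM at 30 min. The range from 16 to 26 min was 0.44 to 0.76 FPKM. The 30 min kidneys overlapped those at 18 min and none at 0 or 28 min. Its log2 fold change at 30 min was 0.33 against 0 min (limma adjusted p = 0.000477) and 0.26 against 28 min (limma adjusted p = 0.0207). Without replicate 3 at 30 min these were 0.25 (limma adjusted p = 0.00489) and 0.17 (limma adjusted p = 0.16), so the step from 28 to 30 min was no longer called. The latter was also lost without replicate 1 (adjusted p = 0.051 in limma) or replicate 3 (adjusted p = 0.074 in limma) at 28 min.

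Tgfb1 made up most of the TGF-beta ligand RNA at each time, 89.1% ± 1.42 (SD, n = 3) of the summed FPKM of the 3 genes at 0 min, 94.1% ± 0.472 at 24 min and 84.2% ± 3.72 at 30 min. The share of Tgfb3 was 5.42% ± 1.0 at 0 min and 12.1% ± 3.54 at 30 min. The Tgfb3 shares at 30 min, 9.99% to 16.2%, did not overlap those at 0 min, 4.53% to 6.51%. An exact permutation test, two-sided, gave p = 0.1, the smallest that 3 kidneys against 3 allow, so no ratio here could pass 0.05; with 40 such tests the adjusted p was 0.154.

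**Figure D2:**
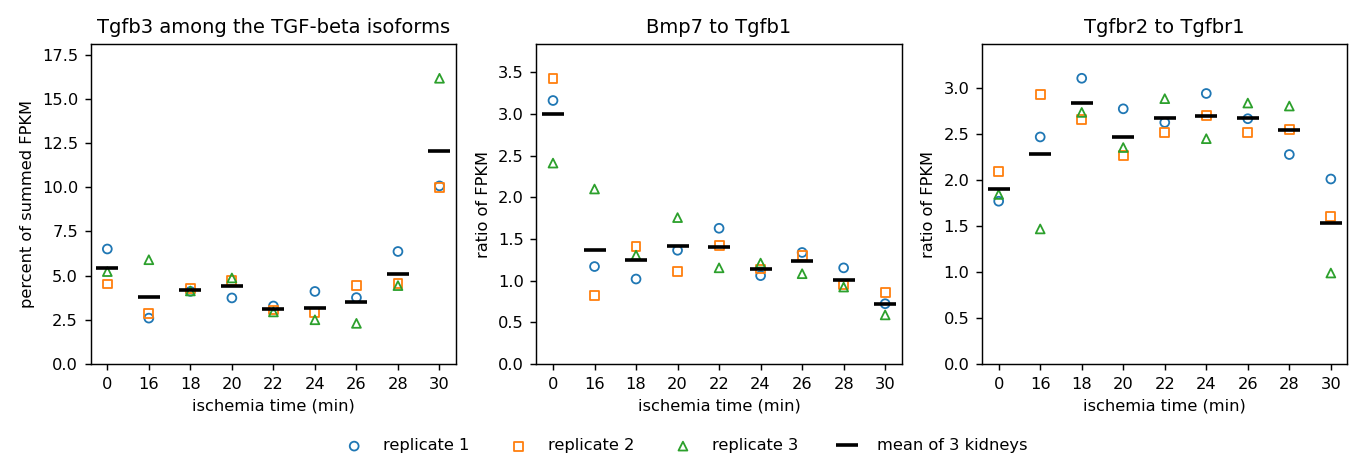
The share of Tgfb3 in the summed FPKM of Tgfb1, Tgfb2 and Tgfb3 in percent (left), the FPKM ratio of Bmp7 to Tgfb1 (middle) and of Tgfbr2 to Tgfbr1 (right) in each kidney (y axis) at each ischemia time in min (x axis, evenly spaced). Symbols are replicates and bars the means of 3 kidneys. The Bmp7 to Tgfb1 ratio lay at 2.41 to 3.43 at 0 min and at 0.589 to 0.857 at 30 min.

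Both activin subunit genes were scarce and rose most at 30 min. Inhbb was at 0.19, 0.32 and 0.42 FPKM at 0 min, 0.99, 0.71 and 1.17 FPKM at 28 min and 1.35, 2.10 and 1.76 FPKM at 30 min. Of the 18 kidneys clamped for 16 to 26 min, only replicate 3 at 16 min, at 0.34 FPKM, lay within the 0 min range, and replicate 2 at 16 min, at 1.40 FPKM, reached the 30 min range. For Inhbb the log2 fold change was 1.01 at 30 min (standard error 0.14, limma adjusted p = 5.56e-06), 0.55 at 28 min (limma adjusted p = 0.00344), 0.42 at 18 min (limma adjusted p = 0.0326) and 0.46 at 24 min (limma adjusted p = 0.0203). The call at 18 min was lost on leaving out any one of 5 of the 6 kidneys (limma adjusted p up to 0.134). That at 24 min was lost without replicate 1 at 0 min or at 24 min (limma adjusted p = 0.0917 and 0.071). Without replicate 3, the 16 min kidneys had a log2 fold change of 0.58 (limma adjusted p = 0.00266) in place of 0.39 (limma adjusted p = 0.0601). Leaving out any other kidney compared gave no call at 16 min, with limma adjusted p up to 0.366. Inhbb was 0.47 higher on the log2 scale at 30 min than at 28 min (limma adjusted p = 0.0354), a call lost on leaving out any one of 4 of the 6 kidneys, replicates 1 and 2 at 28 min and replicates 2 and 3 at 30 min, with limma adjusted p up to 0.17.

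Inhba was at 0.07, 0.05 and 0.20 FPKM at 0 min, 0.31, 0.52 and 0.49 FPKM at 28 min and 1.24, 0.61 and 0.81 FPKM at 30 min. The 16 to 26 min kidneys spread from 0.17 to 0.96 FPKM, with the highest at 16 min and the lowest shared by a 16 min and an 18 min kidney. Every 30 min kidney lay above all others but replicate 2 at 16 min. Inhba rose by a log2 fold change of 0.74 at 30 min (standard error 0.14, limma adjusted p = 0.000175) and of 0.38 at 28 min (limma adjusted p = 0.0331). At 28 min the call was lost without replicate 1 or 2 at 0 min or replicate 2 or 3 at 28 min, with limma adjusted p up to 0.0968. At 16 min it was 0.35 (limma adjusted p = 0.0866), and 0.50 without replicate 3 (limma adjusted p = 0.016). Leaving out any other kidney compared gave no call at 16 min, with limma adjusted p up to 0.507. The ratio of Inhbb to Inhba FPKM averaged 3.74 ± 2.33 (SD, n = 3) at 0 min and 2.23 ± 1.18 at 30 min, which overlapped.

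Bmp7 was the member that fell. It was at 20.82, 18.26 and 20.38 FPKM at 0 min, 15.68, 17.54 and 15.64 FPKM at 28 min and 13.11, 15.07 and 13.74 FPKM at 30 min. The 16 to 26 min kidneys lay between 17.27 and 21.73 FPKM, with a median of 19.6 FPKM, around the 0 min kidneys. All 3 kidneys at 30 min were below each kidney at 0 to 28 min, and the 28 min kidneys were below all at 0 min. Against 0 min it changed by -0.40 on the log2 scale at 28 min (limma adjusted p = 0.000503) and -0.56 at 30 min (standard error 0.08, limma adjusted p = 8.92e-06), where the mean was 0.705 times that at 0 min. Bmp7 was the only one of the 9 called between 26 and 28 min, at -0.28 (limma adjusted p = 0.0232), beside 19.3% of all genes called and 8.52% lower. This call was lost on leaving out replicate 1 or 2 at 26 min or replicate 1 or 3 at 28 min, with limma adjusted p from 0.076 to 0.11. A fit of the 26 and 28 min kidneys alone did not call Bmp7 (limma adjusted p = 0.0655). That fit called Tgfbr1 and Tgfbr2, both higher (limma adjusted p = 0.0403 and 0.0276). Without replicate 3 at 16 min and at 30 min, Tgfb3, Tgfbr1 and Tgfbr2 were called higher at this step (limma adjusted p = 0.025, 0.00265 and 0.0291). At 16 min the change of Bmp7 was -0.20 (limma adjusted p = 0.105), and without replicate 3 -0.25 (limma adjusted p = 0.0449). Leaving out any other kidney compared gave no call at 16 min, with limma adjusted p up to 0.298.

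The ratio of Bmp7 to Tgfb1 FPKM was 3.0 ± 0.527 (SD, n = 3) at 0 min and 1.36 ± 0.659 at 16 min. After 28 min of clamping it was 1.01 ± 0.127, and after 30 min 0.723 ± 0.134. No clamped kidney reached the lowest ratio at 0 min, 2.41. The highest clamped kidney was replicate 3 at 16 min, at 2.10. Each clamp time gave p = 0.1 against 0 min in the exact permutation test, two-sided.

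Markers of the tubule were lower at 28 and 30 min, as Bmp7 was, and some also at times when Bmp7 was not called. From 16 to 26 min 2 to 3 of the 6 proximal tubule markers were lower, beside 1748 to 2800 of the 18188 genes tested. Of the 6 proximal tubule markers 5 were lower at 30 min, beside 25.4% of all genes, and 4 at 28 min, beside 23.6%. Their sum was 1689.9 to 1905 FPKM at 28 min. Of the 3 loop of Henle markers 3 were lower at 28 min and 2 at 30 min. For the 5 markers of distal tubule and collecting duct, 4 were lower at 28 min and at 30 min, beside the same shares of all genes. The sum of these markers was 590.5 to 732 FPKM at 0 min, 280.2 to 367 FPKM at 28 min and 320.1 to 716 FPKM at 30 min. Podocyte markers did not fall: 3 of 5 were higher at 30 min, beside 26.9% of all genes. Their sums were 45.1 to 63.5 FPKM at 0 min and 77.6 to 135 FPKM at 30 min. None of these markers was at 0. In bulk tissue, fewer cells of a type and less RNA per cell cannot be told apart, and the part of cell composition in these results was not tested.

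**Figure D3:**
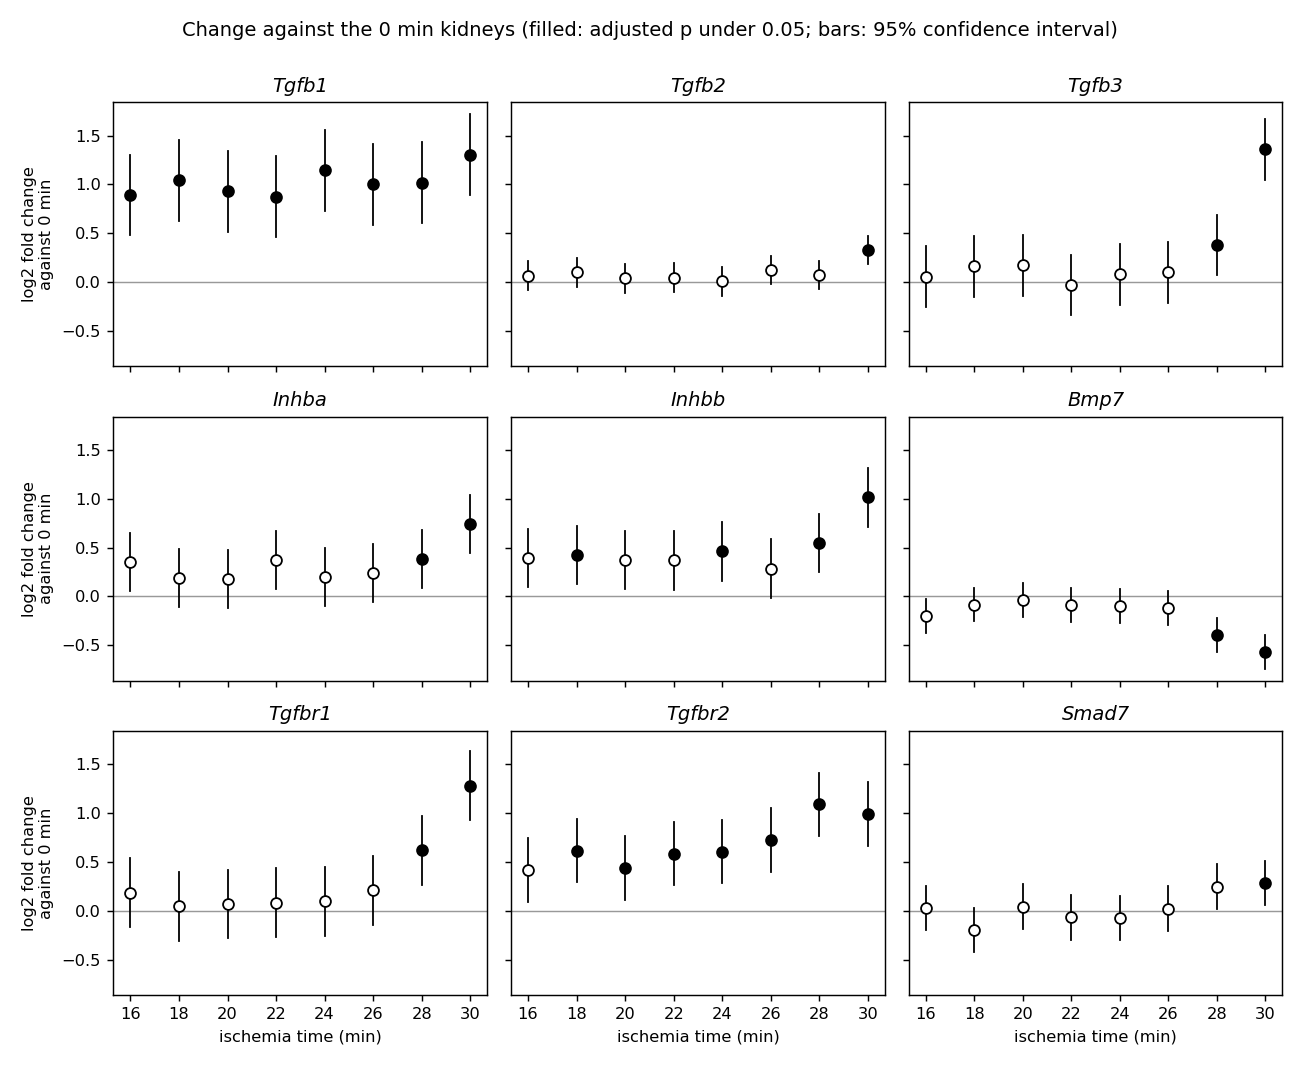
The log2 fold change of FPKM plus 1 against the 0 min kidneys (y axis) for each of the 9 genes at each ischemia time in min (x axis), with its 95% confidence interval from limma. Filled points passed an adjusted p under 0.05. Tgfb1 was called at all 8 times and Tgfbr2 at 7, and at 30 min all 9 points are filled.

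The type II receptor gene Tgfbr2 rose early. It was at 16.62, 19.42 and 19.05 FPKM at 0 min, 29.33, 33.89 and 18.11 FPKM at 16 min, 44.35, 43.73 and 41.60 FPKM at 28 min and 41.26, 35.24 and 39.64 FPKM at 30 min. Among the 24 clamped kidneys, replicate 3 at 16 min alone overlapped the 0 min kidneys. The 28 min kidneys were the highest of the series, each above every kidney at any other time. Tgfbr2 had a log2 fold change of 0.62 at 18 min (limma adjusted p = 0.0061), 0.72 at 26 min (limma adjusted p = 0.00155), 1.09 at 28 min (standard error 0.16, limma adjusted p = 9.4e-06) and 0.99 at 30 min (limma adjusted p = 2.03e-05). At 16 min it was 0.42 and not called (limma adjusted p = 0.0671), but without replicate 3 it was 0.66 (limma adjusted p = 0.000877). Leaving out any other kidney compared gave no call at 16 min, with limma adjusted p up to 0.363. The call at 20 min, 0.44 (limma adjusted p = 0.0475), was lost on leaving out any one of the 6 kidneys (limma adjusted p = 0.0534 to 0.145). Calls at 22 and 24 min were each lost without 1 kidney, replicate 3 at 22 min (limma adjusted p = 0.053) and replicate 1 at 24 min (limma adjusted p = 0.0504).

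The type I receptor gene Tgfbr1 was not called up to 26 min and rose at 28 and 30 min. It was at 9.39, 9.28 and 10.33 FPKM at 0 min, 19.47, 17.14 and 14.83 FPKM at 28 min and 20.51, 21.93 and 40.06 FPKM at 30 min, with a range of 10 to 13.04 FPKM from 16 to 26 min. All 28 min kidneys were above those clamped for less, and the 30 min kidneys above those at 28 min. Replicate 3 at 30 min, the highest, was apart from the other 30 min kidneys. Against 0 min the log2 fold change was 0.62 at 28 min (limma adjusted p = 0.00476) and 1.28 at 30 min (standard error 0.17, limma adjusted p = 2.4e-06), a 2.84-fold rise of the mean from 9.67 ± 0.577 FPKM (SD, n = 3) to 27.5 ± 10.9 FPKM (SD, n = 3). Between 28 and 30 min it was 0.66 (limma adjusted p = 0.014). Without replicate 3 at 30 min, the change against 0 min was 0.96 (limma adjusted p = 2.48e-07), short of a DEG, and that against 28 min 0.34 (limma adjusted p = 0.0556), no longer called. The step from 28 to 30 min was also lost without replicate 3 at 28 min (limma adjusted p = 0.074).

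The FPKM ratio of Tgfbr2 to Tgfbr1 was 1.90 ± 0.169 (SD, n = 3) at 0 min, 2.83 ± 0.239 after 18 min, 2.54 ± 0.264 after 28 min and 1.54 ± 0.515 after 30 min. From 18 to 28 min each kidney lay above the highest 0 min kidney, 2.09, while at 30 min the ranges overlapped. Against 0 min, exact permutation p (two-sided) was 0.1 at each time from 18 to 28 min and 0.4 at 30 min.

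Smad7, the inhibitor, had a small rise. It was at 4.67, 5.51 and 5.63 FPKM at 0 min, 6.78, 7.18 and 7.39 FPKM at 28 min and 7.86, 7.64 and 6.41 FPKM at 30 min. The 16 to 26 min kidneys, 4.70 to 6.90 FPKM, overlapped those at 0 min. The log2 fold change was 0.28 at 30 min (limma adjusted p = 0.0365) and 0.25 at 28 min (limma adjusted p = 0.07), so only the former was called. Smad7 at 28 min was called without quantile normalization (limma adjusted p = 0.00431) and with FPKM rescaled to a constant sum (limma adjusted p = 0.00479). In fits of the 2 groups alone, 28 min was called (limma adjusted p = 0.0273) and 30 min was not (limma adjusted p = 0.0802). The call at 30 min was lost without replicate 1 at 0 min (limma adjusted p = 0.158) or replicate 1 or 2 at 30 min, and without replicate 3 at 30 min it was 0.38 (limma adjusted p = 0.00916).

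When the 9 times were put in order of a gene's mean level, few neighbours in that order differed. For Tgfb3, Inhbb and Tgfbr1 the pair that did was 28 and 30 min. For Tgfb2 it was 18 and 30 min (limma adjusted p = 0.0117), for Inhba 16 and 30 min (limma adjusted p = 0.035), for Tgfb1 0 and 22 min (limma adjusted p = 0.00256) and for Tgfbr2 0 and 20 min (limma adjusted p = 0.0475). No pair of neighbours in the order differed for Bmp7 or Smad7. Tgfbr2 had its highest mean at 28 min, 43.2 FPKM, and its next at 30 min, 38.7 FPKM, which were not told apart (limma adjusted p = 0.774).

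Between successive clamp times, calls came at 28 and 30 min. From 16 to 26 min limma called 0 of the 9 at each of the 5 steps, and 0 of all genes. At an unadjusted p under 0.05, 1 of the 9 passed at 20 against 18 min and 0 at the other steps, beside 447 to 1100 of all genes. Between 28 and 30 min 4 were called, all higher (Tgfb2, Tgfb3, Inhbb and Tgfbr1), beside 13.2% of all genes called and 6.47% higher, and 1 of them (Tgfb3) was called without replicate 3 at 30 min. In a fit of the 28 and 30 min kidneys alone 0 were called. At 30 min against 16 min 7 were called, beside 40.6% of all genes, with 6 higher, beside 22.5%, and Bmp7 lower, beside 18.1%. Tgfb3 and Tgfbr1 were DEGs, beside 6.23% of all genes. In that comparison Inhba and Tgfbr2 were not called without replicate 3 at 16 min (limma adjusted p = 0.21 and 0.0501). Inhba was also lost without replicate 1 at 16 min or at 30 min, and Tgfb1 and Smad7 were each called on leaving out 1 kidney, replicate 2 at 16 min (limma adjusted p = 0.00481) and replicate 3 at 30 min (limma adjusted p = 0.0193). Over all 9 ischemia times the moderated F test in limma called 9 of the 9 genes, beside 55.1% of all genes, with adjusted p from 3.58e-06 for Tgfb3 to 0.0156 for Smad7. Without replicate 1 at 30 min Inhba was lost (limma adjusted p = 0.0537), and without replicate 3 at 30 min Tgfb2 (limma adjusted p = 0.0961).

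At 30 min some markers of other cells were higher and some were not, beside 26.9% of all genes called higher and 25.4% lower. The injured tubule sum was 2140.0 to 2259 FPKM at 28 min and 2507 to 4910.3 FPKM at 30 min, the highest in replicate 3, which also had the highest Tgfb1, Tgfb2, Tgfb3 and Tgfbr1. The same kidney was the lowest of the 30 min kidneys for Smad7 and lay between the others for Inhba, Inhbb, Bmp7 and Tgfbr2. Platelet and megakaryocyte markers (Pf4, Ppbp, Itga2b and Gp9) summed to 2.71 to 3.34 FPKM at 0 min, 3.55 to 8.98 FPKM at 16 min and 12.6 to 20.8 FPKM at 30 min, with 2 of 4 higher and 1 lower at 30 min. Neutrophil markers summed to 5.49 to 11.8 FPKM at 0 min and 22.7 to 30.5 FPKM at 30 min, with 4 of 6 higher. Endothelial markers were higher for 3 of 5 at 30 min, with sums of 63.7 to 76.2 FPKM at 0 min and 85.8 to 134.5 FPKM at 30 min. Macrophage and fibroblast sums overlapped between 0 and 30 min. T cell markers were lower for 3 of 5, with sums of 0.53 to 0.72 FPKM at 30 min against 1.37 to 4.95 FPKM at 0 min, and Cd3g was at 0 in all 30 min kidneys. The 4 markers of the neighbouring adrenal cortex summed to 1.14 to 1.41 FPKM at 0 min and 1.27 to 1.5 FPKM at 30 min. The part of these cells in the results was not tested.

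Most of the 12 listed target genes of TGF-beta were higher after every clamp time. The list was chosen with earlier results of these data known, so its counts are a description and no test of the pathway. Of 12 listed targets, 10 were higher at 16 min, beside 9.43% of all genes, 11 at 28 min, beside 24.5%, and 12 at 30 min, beside 26.9%, of which 11 were DEGs. None was lower at these times. The median log2 fold change was 1.47 at 16 min and 1.86 at 30 min, beside medians over all genes of -0.00 and 0.00. Timp1, an inhibitor of matrix proteases, was at 0.60, 0.22 and 3.67 FPKM at 0 min, 28.40, 38.78 and 36.82 FPKM at 28 min and 33.12, 21.71 and 45.77 FPKM at 30 min. Neither clamped group overlapped the 0 min kidneys, and the log2 fold change was 3.93 at 30 min (standard error 0.57, limma adjusted p = 7.2e-06). Tagln and Acta2, both of the contractile cytoskeleton, had log2 fold changes of 3.56 and 3.0 at 30 min. Replicate 3 at 30 min was the highest for both. Tagln was at 85.95, 69.32 and 247.37 FPKM and Acta2 at 68.84, 48.69 and 176.95 FPKM in the 30 min kidneys. Ccn2 and Skil, named after their values were seen, were the 2 targets not higher at 16 min. Without replicate 2 at 16 min 5 targets were higher there, without replicate 3 it was 10, and in a fit of the 0 and 16 min kidneys alone 3.

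**Figure D4:**
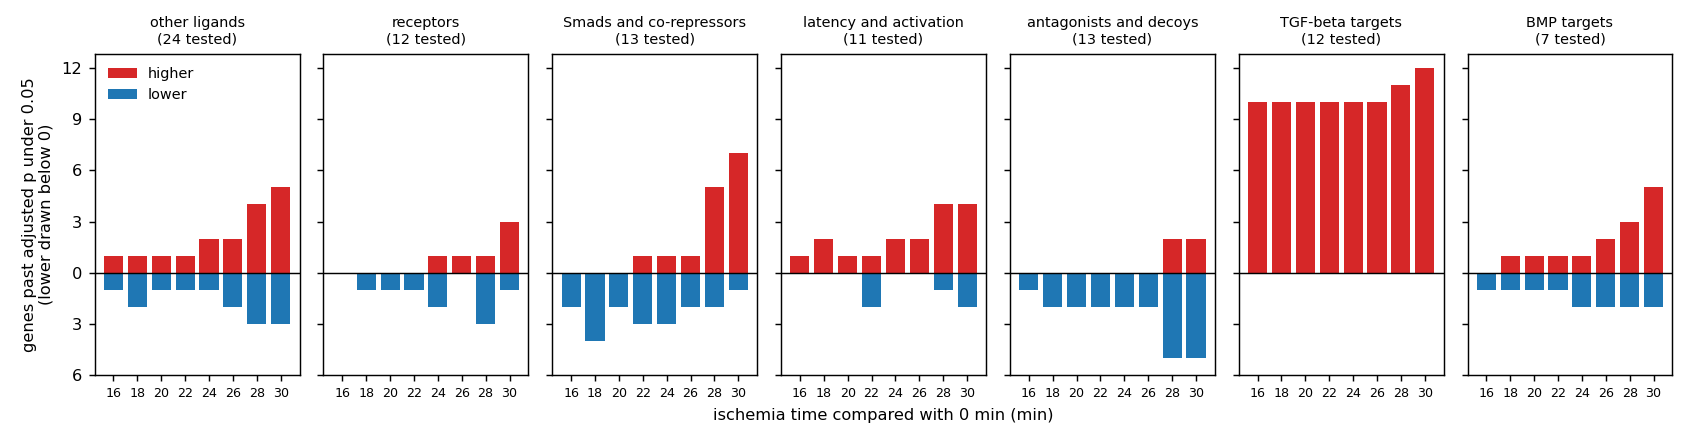
Number of genes in each of 7 lists of the pathway (y axis) that were higher (red) or lower (blue, drawn below 0) than at 0 min with an adjusted p under 0.05 in limma, at each clamp time in min (x axis). Of the 12 listed TGF-beta targets 10 to 12 were higher at every time. From 16 to 26 min each other list held 0 to 2 higher and 0 to 4 lower calls. Beside these, 1715 to 2702 of the 18188 genes tested were higher and 1748 to 2800 lower. The largest of these counts was 4 of 13 Smads and co-repressors lower at 18 min, beside 2764 of all genes. The lists were chosen with earlier results of these data known.

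BMP target genes went both ways. At 30 min 5 of 7 were higher, beside 26.9% of all genes, and 2 lower, beside 25.4%, and 3 of the 7 were DEGs, beside 10.7%. At 16 min 0 of the 7 were higher, beside 9.43% of all genes. Id1 and Id3, inhibitors of helix-loop-helix transcription factors, rose by log2 fold changes of 2.31 and 1.59 at 30 min, while Id4, of the same family, fell by 1.20 and the transcription factor Atoh8 fell by 0.46. Id1 was at 7.96, 11.15 and 12.91 FPKM at 0 min and 59.41, 69.58 and 48.73 FPKM at 30 min, with no overlap. Of the 7, 3 were higher and 1 lower without replicate 3 at 30 min.

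Among the 24 other ligands tested of 27 listed, 5 were higher (2 DEGs) and 3 lower (1 DEG) at 30 min. Both counts are smaller shares of the list than the 26.9% higher and 25.4% lower over all genes, of which 10.7% were DEGs. Bmp10 and Mstn were not analysed here, and Gdf2 did not pass the filter. Gdf15, a stress-induced ligand, rose from 6.37 ± 3.32 to 106 ± 34.7 FPKM (SD, n = 3), a log2 fold change of 3.88 (limma adjusted p = 2.25e-08), and Bmp3 and Bmp6 rose by 1.17 and 0.95. Bmp3 was at 2.12, 1.57 and 4.43 FPKM in the 30 min kidneys, the highest in replicate 3. Gdf11 fell by 1.03 on the log2 scale. Of 12 other receptors and co-receptors 3 were higher and 1 lower at 30 min, beside 26.9% and 25.4% of all genes. Without replicate 3 at 30 min 2 were lower, and in a fit of the 0 and 30 min kidneys alone 1 was higher. Those named by size had log2 fold changes of 0.65 for the endothelial co-receptor Eng, 0.49 for the type I receptors Acvr1 and Acvrl1, and -0.60 for the activin receptor Acvr2b.

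Of 13 Smads and co-repressors 7 were higher (1 DEG) and 1 lower at 30 min, beside 26.9% and 25.4% of all genes and 10.7% DEGs. Their median log2 fold change was 0.34, beside 0.00 over all genes. The co-repressor Tgif1 rose by 1.10, the ubiquitin ligase Smurf1 by 0.81, Smad1 by 0.68 and Smad3 by 0.58. Of 11 genes of TGF-beta latency and activation 4 were higher (2 DEGs) and 2 lower, beside the same shares of all genes. Lrrc32, which holds latent TGF-beta on the cell surface, was at 4.54, 3.75 and 6.30 FPKM at 0 min and 21.60, 22.18 and 36.87 FPKM at 30 min, without overlap and with a log2 fold change of 2.14 (limma adjusted p = 3.24e-08). Thbs1, encoding thrombospondin, rose by 1.27, whereas the integrin subunits Itgb6 and Itgb8, which activate latent TGF-beta, fell by 0.94 and 0.64. Thbs1 was at 20.67, 20.35 and 45.59 FPKM in the 30 min kidneys, the highest in replicate 3. Of 13 antagonists and decoys 2 were higher (1 DEG) and 5 lower (3 DEGs), beside the same 26.9%, 25.4% and 10.7% of all genes, with a median of -0.28 beside 0.00. The BMP antagonists Chrdl1 and Sostdc1 fell by 1.75 and 1.21 and the TGF-beta-binding proteoglycan Dcn by 1.63, whereas the BMP antagonist Nbl1 rose by 1.58. All these counts and values are at 30 min against 0 min.

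By the Pearson correlation of quantile normalized log2 values over the 27 kidneys, among genes with a mean of at least 1 FPKM, the 3 genes most like Tgfb1 were Ckap4 (r = 0.95), Timp1 (0.94) and Plekhg2 (0.93). For Tgfb3 they were Lmod1 (r = 0.95), Paxbp1 (0.95) and its receptor gene Tgfbr1 (0.94), and for Tgfb2 Lmod1 (r = 0.86), Heg1 (0.85) and Son (0.83). Tgfbr1 was closest to Esyt2 (r = 0.97), Dync1i2 (0.96) and Cast (0.96), and Tgfbr2 to Parp3 (r = 0.97), Trim47 (0.96) and Lsr (0.96). The genes most like Bmp7 were Agxt2 (r = 0.95), Dcxr (0.94) and Car14 (0.94). Those most like Inhbb were Hspb1 (r = 0.91), Actr1a (0.89) and Uchl1 (0.89), and those most like Inhba were Adgrg6, Stx11 and Pdpn (r = 0.87, 0.87 and 0.86). Smad7 had the weakest likeness, to Luc7l (r = 0.84), Epc1 (0.81) and Cpsf6 (0.79). These are descriptions over kidneys that share the 9 ischemia times and so share every difference between them.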

How the data were processed

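The authors deposited 1 table with an FPKM value for each gene symbol in each of the 27 kidneys. The submitters' processing notes name Bowtie2, RSEM and DESeq2 and build GRCm38.p6, without versions. Read counts were not used here, so depth is unknown and precision rests on 3 mice per ischemia time.

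The log2 of FPKM plus a pseudocount of 1 was quantile normalized across kidneys. A model with 1 mean per time was fitted in limma 3.58.1 (R 4.3.3) to 18188 genes, those exceeding 0 FPKM in 3 or more kidneys. Each time was compared with 0 min and with the time before it, and 30 min with 16 min, with Benjamini-Hochberg adjustment over all genes in each comparison. The members and lists were chosen with earlier results of these data known. By rule all 9 members were named, then up to 4 called genes per list with the largest absolute log2 fold change at 30 min, and the 3 genes most correlated with each member. One gene that this rule names is not reported here. Ratios were tested by exact permutation in scipy 1.17.1, and figures drawn with matplotlib 3.10.9 (Python 3.11.15). Alternatives were pseudocounts of 0.1 and 0.01 FPKM, no quantile normalization, constant sums, other filters, a variance trend, a replicate block, only the groups compared, and leaving out kidneys. On simulated data for 30 against 0 min over 18188 genes, 197 of 200 genes changed by 2 on the log2 scale were DEGs, and 0 others. The changed genes were drawn only from the more abundant ones. That run therefore did not cover scarce genes such as Tgfb2 and Inhba, smaller changes, or calls by adjusted p alone.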

Additional observations from a re-analysis of the deposited data

How the results depend on the processing

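Counts here are of the 9 genes. With the pseudocount at 0.01 FPKM, 3 in place of 1 were called at 16 min and 4 in place of 2 at 22 min against 0 min, and DEGs rose to 2 at 16, 18, 20, 22 and 24 min, 4 at 28 min and 1 at 30 against 28 min. At 0.1 FPKM the calls at 16 and 22 min were also 3 and 4, with 1 DEG at 16, 20 and 22 min, 2 at 18 and 24 min, 4 at 28 min and 1 at 30 against 28 min. Without quantile normalization 3 were called at 16 min and 4 at 22 min, with 1 DEG at 20 min. Rescaling to a constant sum (TPM) gave 3 at 16 min, 4 at 22 min and 4 in place of 2 at 26 min, with 1 DEG at 16, 20 and 22 min and at 30 against 28 min. Without any filter 1 in place of 2 was called at 20 min. A filter of 1 FPKM, which gives no value for Tgfb2 and Inhba, and a variance trend moved no count by over 1.5 times. That filter still lost 3 calls against 0 min. Inhbb was at a log2 fold change of 0.22 at 18 min and 0.26 at 24 min (limma adjusted p = 0.203 and 0.126). Tgfb3 was at 0.23 at 28 min (limma adjusted p = 0.197). Fits of the compared groups alone called 0 at 16 min, 4 at 22 min, 2 in place of 1 at 28 against 26 min, 3 in place of 7 at 30 against 16 min and 0 in place of 4 at 30 against 28 min. Without replicate 3 at 16 min and at 30 min, an alternative chosen after seeing the data, 5 were called at 16 min, 4 at 22 min and 4 at 28 against 26 min, with 1 DEG at 16 min and 1 in place of 2 at 30 against 16 min.

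Leaving out 1 kidney at a time gave 1 to 5 calls at 16 min, 2 to 3 at 18 min, 1 to 1 at 20 min, 1 to 3 at 22 min, 1 to 3 at 24 min, 2 to 2 at 26 min, 5 to 7 at 28 min and 8 to 9 at 30 min against 0 min, 0 to 1 at 28 against 26 min, 1 to 4 at 30 against 28 min, 5 to 8 at 30 against 16 min and 8 to 9 in the F test. DEGs were 0 to 1 at 16, 18, 20, 22 and 26 min, 1 to 1 at 24 min, 1 to 2 at 28 min, 3 to 5 at 30 min, 0 to 1 at 30 against 28 min and 1 to 2 at 30 against 16 min. No gene's called change reversed under the alternatives run. The causes of these shifts were not tested.

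The labels give every time the replicate numbers 1 to 3. Over 108 pairs of same-numbered kidneys, deviations from the group means correlated with a mean r of 0.00868 (-0.416 to 0.480), with 25 over 0.1, and 8 of 27 kidneys correlated best with their own number, so the numbers were not taken to pair the mice. With the replicate block, 1 in place of 2 was called at 20 min, where Tgfbr2 was lost (limma adjusted p = 0.056), and at 28 min Tgfb3 was lost (limma adjusted p = 0.051).

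With 3 mice per time and no read counts, the precision of Tgfb2, Tgfb3, Inhba and Inhbb, below 1 FPKM at 0 min, could not be set against depth.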

Other observations

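The collagen genes Col1a1, Col1a2 and Col3a1, which encode the chains of fibrillar collagen and were chosen after their values were seen, had smaller log2 fold changes at 30 min than at 24 min. Col1a1 averaged 3.81 FPKM at 0 min, 56.3 FPKM at 24 min and 23.4 FPKM at 30 min, with log2 fold changes of 3.46 (limma adjusted p = 9e-07) and 2.14 (limma adjusted p = 1.18e-05) against 0 min. Col3a1 averaged 4.78, 63.96 and 19.1 FPKM at these times, with log2 fold changes of 3.35 and 1.58, and Col1a2 7.58, 46.9 and 22.7 FPKM, with 2.38 and 1.26. Over the same times Ccn2, a matricellular protein gene, averaged 14.5, 24.8 and 115 FPKM. The difference between 24 and 30 min was not tested.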
